A study of Mus musculus with 6 samples.

Results

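The Hippo pathway core kinases and scaffolds were examined as a group of 10 genes, namely the kinases Stk3, Stk4, Lats1 and Lats2, their adaptors Sav1, Mob1a and Mob1b, and the membrane-associated proteins Nf2, Wwc1 and Amot. They were taken by symbol from a table of 35027 genes, and all 10 were found. The table comes from RNA-seq of mouse thyroid tumor cells, sorted as positive for Kate, a red fluorescent reporter. YAP mice carried a Cre transgene that recombines in thyroid follicular cells, RIK, a Rosa26 allele that gives recombined cells the dox-dependent activator rtTA together with Kate, and tetO-YAP1, a transgene for YAP S127A. BrafYAP mice carried the same alleles with LSL-Braf V600E, which Cre switches on from the endogenous gene, so that its expression did not depend on doxycycline (dox). Both genotypes received dox chow, from 4 weeks of age by the labels. By these alleles the sorted cells of both genotypes could express mutant YAP, and the comparison asks which of these transcripts differ when mutant Braf is added. There were 3 libraries per genotype of about 20000 cells each, YAP replicates 1, 2 and 3 and BrafYAP replicates 1, 2 and 6. The labels give 3 pooled tumors behind every YAP library and 1 tumor behind every BrafYAP library, and thus pooling and genotype cannot be told apart.

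In the Hippo pathway, the MST kinases (Stk4 encodes MST1 and Stk3 encodes MST2), held on the scaffold SAV1, phosphorylate and activate LATS1 and LATS2 together with their cofactors MOB1A and MOB1B. NF2 (merlin), the KIBRA protein encoded by Wwc1 and angiomotin (Amot) bring these kinases and YAP to the membrane and cell junctions. Active LATS phosphorylates YAP and its relative TAZ (gene Wwtr1), which are then held in the cytoplasm or degraded. Unphosphorylated YAP and TAZ enter the nucleus and bind TEAD factors on DNA. The S127A mutant lacks a serine that LATS phosphorylates, and the kinases above it can still act on TAZ. Several pathway genes, Lats2 among them, are known as transcriptional targets of YAP and TAZ.

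Because nuclear YAP acts through TEAD factors, the promoters of the genes to which the comparisons below return most often are shown with any copy of the TEAD core motif, GGAATG or its complement CATTCC, in capitals. Sequences are from RefSeq on build GRCm38.p6, written 5′ to 3′ on the strand of the gene, from 250 bases before to 50 after an annotated transcript start. Lats2 (chr14:57746074-57746373, minus strand) holds the motif at position 5 after the start, Mob1a (chr6:83325789-83326088, plus strand) at position -209 and Sav1 (chr12:69986953-69987252, minus strand) at position -106. Stk4 (chr2:164073888-164074187, plus strand) holds none in this window.
Lats2: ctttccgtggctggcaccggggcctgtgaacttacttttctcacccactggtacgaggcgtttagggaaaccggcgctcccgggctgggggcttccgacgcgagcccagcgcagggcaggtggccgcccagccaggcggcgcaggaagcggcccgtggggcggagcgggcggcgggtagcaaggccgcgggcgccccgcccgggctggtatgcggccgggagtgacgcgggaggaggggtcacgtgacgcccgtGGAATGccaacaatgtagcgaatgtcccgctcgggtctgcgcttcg
Mob1a: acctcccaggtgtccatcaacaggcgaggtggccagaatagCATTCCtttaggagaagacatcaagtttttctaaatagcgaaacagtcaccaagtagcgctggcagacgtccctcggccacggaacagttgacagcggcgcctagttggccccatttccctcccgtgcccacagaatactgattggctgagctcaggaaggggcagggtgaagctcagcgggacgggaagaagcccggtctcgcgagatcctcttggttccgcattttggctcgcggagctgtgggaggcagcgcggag
Sav1: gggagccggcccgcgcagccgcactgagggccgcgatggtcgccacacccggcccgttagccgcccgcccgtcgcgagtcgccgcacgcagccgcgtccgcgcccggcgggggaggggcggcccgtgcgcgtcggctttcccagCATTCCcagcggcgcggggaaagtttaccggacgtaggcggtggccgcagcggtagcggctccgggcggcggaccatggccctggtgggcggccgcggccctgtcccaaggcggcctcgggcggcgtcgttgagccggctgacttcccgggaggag
Stk4: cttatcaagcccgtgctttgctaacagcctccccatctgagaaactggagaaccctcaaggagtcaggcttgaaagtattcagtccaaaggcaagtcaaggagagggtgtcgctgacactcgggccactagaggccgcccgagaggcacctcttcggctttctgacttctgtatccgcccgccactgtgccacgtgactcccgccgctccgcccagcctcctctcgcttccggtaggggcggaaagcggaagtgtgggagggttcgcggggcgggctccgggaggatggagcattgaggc
RefSeq windows were found for 9 of the 10 genes, 11 windows in all, and 3 of the 11 windows, from 3 genes, held the motif. A second Lats2 window, not shown, held none. Both strands were searched. Of all 32851 promoter windows of this length, 14.66% held it, so a match is a description of the sequence and not a bound site.

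Expression of the 10 genes is given below in scaled reads, which are the deposited TPM multiplied back by the genomic span the authors divided by, on the authors' own scaling between libraries. Differences are log2 fold changes of BrafYAP against YAP from limma, on log2(scaled reads + 1), with the standard error (SE) and with p-values adjusted by Benjamini-Hochberg over the 16834 genes with a mean of at least 10 scaled reads. All 10 genes passed that minimum. Depth was 26.2 to 36.9 M estimated reads per library, and the 10 genes had between 13.1 and 4310 estimated reads in any library.

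None of the 10 genes passed a limma adjusted p of 0.05. The background was the same, as 0 of 16834 genes (0%) passed. At an unadjusted p under 0.05, 2 of the 10 passed, beside 20.2% of all genes. They were Stk4 on the lower side, where 10.5% of all genes passed, and Mob1a on the higher side, where 9.68% did. The 3 values of each genotype did not overlap for 1 of the 10, beside 28.7% of all genes. It was Stk4, lower in BrafYAP, as were 17.1% of all genes, and 0 of the 10 were higher without overlap, beside 11.6% of all genes. None of these shares stood above its background by as much as 1 gene of the 10. The median log2 fold change was 0.07 over the 10 genes and -0.12 over all genes tested, with 6 positive and 4 negative values among the 10 and 44.3% positive values among all genes. Median-ratio normalization moved the median of all genes to 0.01.

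**Figure D1:**
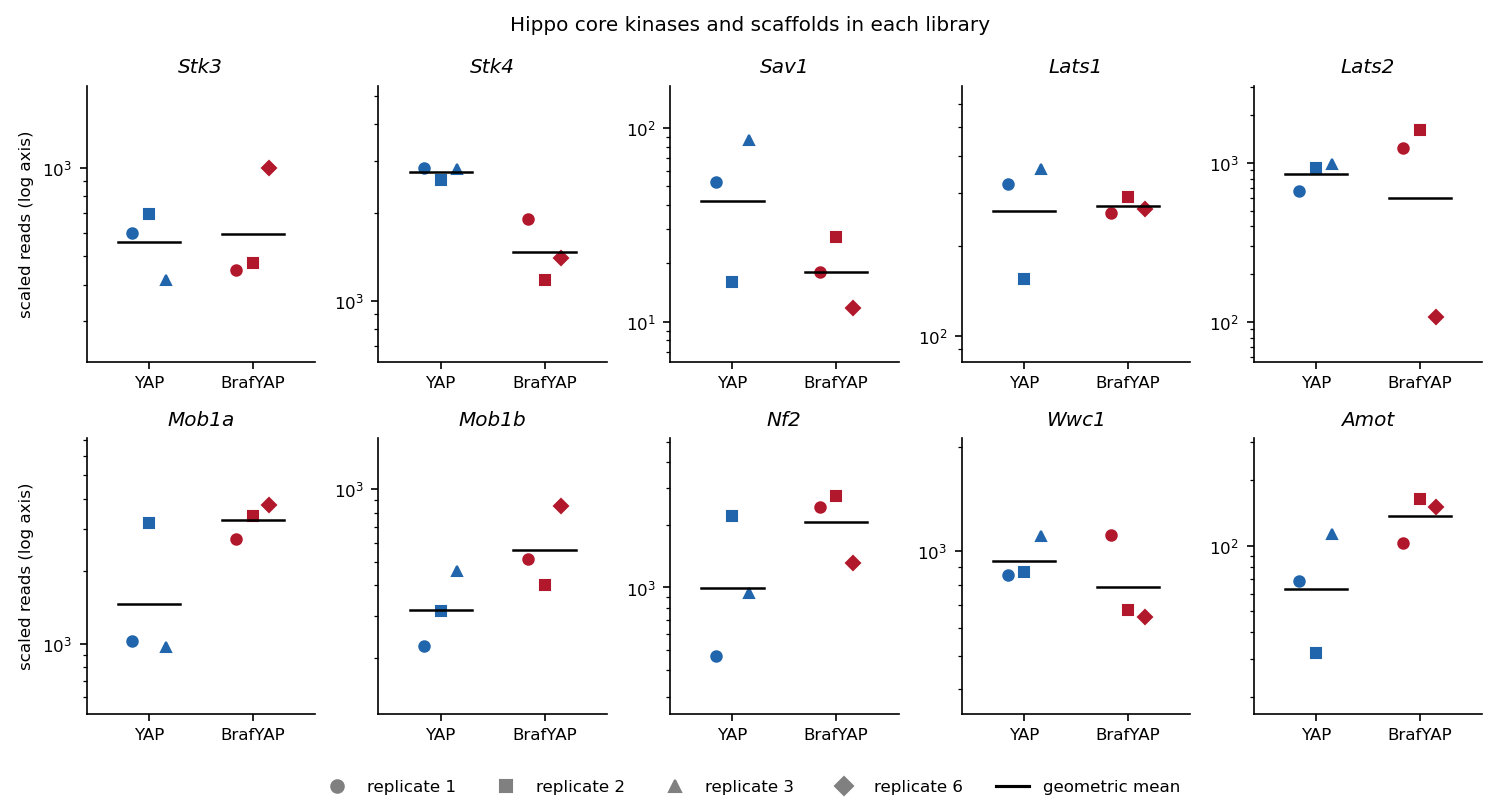
Scaled reads of each of the 10 genes in each library on log axes, with YAP in blue, BrafYAP in red, a symbol per replicate number and bars at the geometric mean of each genotype. Stk4 is the gene whose YAP values, 2584 to 2840.2, all lie above its BrafYAP values, and Lats2 has a BrafYAP replicate 6 value of 107 far under the others.

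Stk4, the gene for MST1 (chr2:164070322-164155524, plus strand, mm10), had 2840.2, 2584 and 2813 scaled reads in YAP replicates 1, 2 and 3. In BrafYAP replicates 1, 2 and 6 it had 1905, 1179.7 and 1400.3. The YAP values lay close together, and each BrafYAP value lay under all of them. The means were 2746 ± 141 (SD, n = 3) and 1495 ± 372 (SD, n = 3). The log2 fold change, taken on the log scale, was -0.90 (SE 0.28, 95% interval -1.57 to -0.24), a 1.87-fold lower level in BrafYAP. The limma p was 0.0142 unadjusted and 0.152 adjusted. With any 1 library left out the log2 fold change stayed between -1.09 and -0.75, at limma adjusted p-values of 0.161 to 0.357. By unadjusted p, Stk4 ranked at 1571 among all genes tested. Stk4 shares 848 annotated bases with Tomm34 on the opposite strand, which had 789 to 2481 estimated reads. The sources do not say whether strand was used, so reads in that stretch could not be divided between them with certainty.

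Markers of immune cells, which express MST1 strongly, were in every library although the cells were sorted for Kate. The summed level of the 8 immune genes listed, in TPM recomputed per exonic length, was 17083 to 54911 in YAP and 7081 to 15509.7 in BrafYAP, and these ranges did not overlap. The highest was Lyz2, a macrophage and granulocyte lysozyme, and 7 of the 8 were above 0 in all libraries, Cd79a being at 0 in BrafYAP replicate 6. Lyz2 and Cd74 made up most of the sum in every library. Lyz2 by itself overlapped between genotypes (11028.5 to 38889 in YAP, 3007 to 12011 in BrafYAP). Cd74 did not (5333 to 18957 and 1606 to 3830), nor did Ptprc at its far lower level (8.28 to 11.9 and 2.04 to 4.22). Of the 7 that could be tested, 5 were lower in BrafYAP at an unadjusted limma p under 0.05 (71.4%, beside 10.5% of all genes). After adjustment 0 passed. In 4 of the 7 the genotypes did not overlap (57.1%, beside 28.7% of all genes). The median log2 fold change of the 7 was -1.85. The summed endothelial markers (3.20 to 32.4 in YAP, 1.79 to 47.7 in BrafYAP) and fibroblast markers (133 to 258 and 143 to 284) overlapped between genotypes. Of the 7 fibroblast markers, however, 2 were higher and 1 was lower in BrafYAP at an unadjusted limma p under 0.05 (42.9%, beside 20.2% of all genes). In 3 of them the genotypes did not overlap (42.9%, beside 28.7% of all genes), and the median log2 fold change of the 7 was 0.71. None of the 6 endothelial markers had an unadjusted limma p under 0.05, beside 20.2% of all genes, and their median was 0.68. The part of any of these cell types in the Stk4 difference was not tested. In bulk RNA, fewer cells of a type and less RNA per cell cannot be told apart. The 3 genes whose profile over the 6 libraries was nearest to that of Stk4 were Gm7459, Gm12834 and D17H6S53E, with root mean square differences of 0.086, 0.105 and 0.106 in centred log2 values.

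Stk3, the gene for MST2 (chr15:34875496-35178921, minus strand), had 601, 698 and 415 scaled reads in the YAP libraries and 448, 475 and 999.8 in BrafYAP replicates 1, 2 and 6. Replicate 6 was the highest of all, and the other BrafYAP libraries lay within the YAP range. Its log2 fold change was 0.10 (SE 0.41, 95% interval -0.87 to 1.06; limma adjusted p = 0.915), and it was -0.28 without BrafYAP replicate 6 and -0.12 without YAP replicate 3. A difference in Stk3 was therefore not detectable with these libraries, and the interval reaches to about the size of the Stk4 difference.

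Per exonic length, Stk4 exceeded Stk3 in every library, by 4.93, 3.86 and 7.07-fold in YAP replicates 1, 2 and 3 and by 4.44, 2.59 and 1.46-fold in BrafYAP replicates 1, 2 and 6. With the length of the longest coding transcript this order held in 5 libraries (1.38 to 3.78-fold) and turned in BrafYAP replicate 6, where Stk3 exceeded Stk4 by 1.28-fold. The log2 ratio of Stk3 to Stk4 averaged -2.36 in YAP (SD 0.44) and -1.36 in BrafYAP (SD 0.80). The ranges overlapped, and the difference of 1.00 had p = 0.2 in an exact two-sided permutation test. The smallest p such a test can give with 3 values per group is 0.1.

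Sav1, the scaffold that holds the MST kinases (chr12:69965012-69987002, minus strand), was the gene with the fewest reads. It had 52.6, 16 and 86.7 scaled reads in YAP and 18.1, 27.5 and 11.8 in BrafYAP. The spread within YAP was 5.42-fold, with replicate 2 lying among the BrafYAP values. For Sav1 the log2 fold change was -1.17 (SE 0.74, 95% interval -2.91 to 0.56; limma adjusted p = 0.404), and it ranged from -1.84 without YAP replicate 2 to -0.66 without YAP replicate 3. Of the 50-base words in its transcripts, 24.7% also occur in Atl1, which overlaps it on the opposite strand and had 270.2 to 413 estimated reads, so the Sav1 values are uncertain.

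Lats2 (chr14:57689662-57758388, minus strand), the gene for 1 of the 2 LATS kinases, had 668, 939 and 982 scaled reads in the YAP libraries. In BrafYAP replicates 1, 2 and 6 it had 1253, 1609.8 and 107. BrafYAP replicates 1 and 2 lay above all YAP libraries and replicate 6 lay under all of them, with a mean of replicates 1 and 2 that was 13.3 times the replicate 6 value. The arithmetic means were 863 ± 170.3 (SD, n = 3) and 990.0 ± 785 (SD, n = 3), higher in BrafYAP. On the log scale, where the low replicate 6 counts for more, the log2 fold change was -0.50 (SE 0.96, 95% interval -2.76 to 1.77; limma adjusted p = 0.793), and it was 0.74 without BrafYAP replicate 6. The residual SD of Lats2 in the fit was 1.54 on the log2 scale, larger than that of 90.9% of all genes tested, and the largest SE of the 10 genes was that of Lats2. Of its 50-base words, 41.2% are shared with Gm49361, a gene annotated across Lats2 on the same strand, which had at most 0.052 estimated reads.

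Some other genes of the pathway and its output were also lowest in BrafYAP replicate 6. Others were not, as Stk3 and Mob1a were highest in that library. Wwtr1, at 2501 there, lay above YAP replicates 1 and 3 (945 and 1235). The share of all genes that were lowest in replicate 6 was not computed. Yap1, whose row cannot be assigned to the endogenous gene or the transgene here, had 783, 781 and 907 scaled reads in YAP and 1368, 1465 and 264 in BrafYAP replicates 1, 2 and 6. Ankrd1, a YAP and TAZ target, had 1079.8, 944 and 687 in YAP and 687, 812 and 7.34 in BrafYAP. Amotl2, an angiomotin relative and also a target, had 6074, 25671 and 15961 in YAP and 25067, 28352 and 1181 in BrafYAP. For all 3 genes replicate 6 was the lowest of the 6 libraries. The classical targets Ctgf and Cyr61 could be read only on the deposited scale, TPM divided by genomic span. Ctgf had 189, 906 and 346 in YAP and 2476, 4028 and 110.3 in BrafYAP, and Cyr61 had 126, 1430.4 and 506 in YAP and 1609, 1592 and 79.0 in BrafYAP, again with replicate 6 the lowest. Amotl2, Ctgf and Cyr61 were chosen after their values were seen, and Yap1 had a log2 fold change of -0.02 (SE 0.65, adjusted p = 0.987 in limma), which was 0.78 without BrafYAP replicate 6.

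BrafYAP replicate 6 also stood apart in some of the follicular and endothelial markers. Thyroglobulin (Tg) was at 196 TPM per exonic length there, against 1.29 and 0.53 in BrafYAP replicates 1 and 2 and 12.0 to 170.3 in YAP. Tshr, the TSH receptor gene, was at 0 in BrafYAP replicates 1 and 2, at 7.25 in replicate 6 and at 0.39 to 2.06 in YAP. The endothelial gene Tie1 was at 14.3 in replicate 6 and at most 1.10 elsewhere, and Cldn5 was at 12.4 and at most 0.46. Pax8, a thyroid transcription factor, was at 75.9 to 219.5 in all 6 libraries and lowest in BrafYAP replicate 6. In all, 9 of the 11 thyroid and epithelial markers were above 0 in all libraries, and the list had a summed level of 4796 to 16465 in YAP and 7529 to 16922 in BrafYAP, so the labelled tissue was present in each. Pearson's r across genes was 0.732 to 0.836 between replicate 6 and the other libraries and 0.968 between BrafYAP replicates 1 and 2. Whether the state of this tumor bears on its Lats2 value was not tested.

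**Figure D2:**
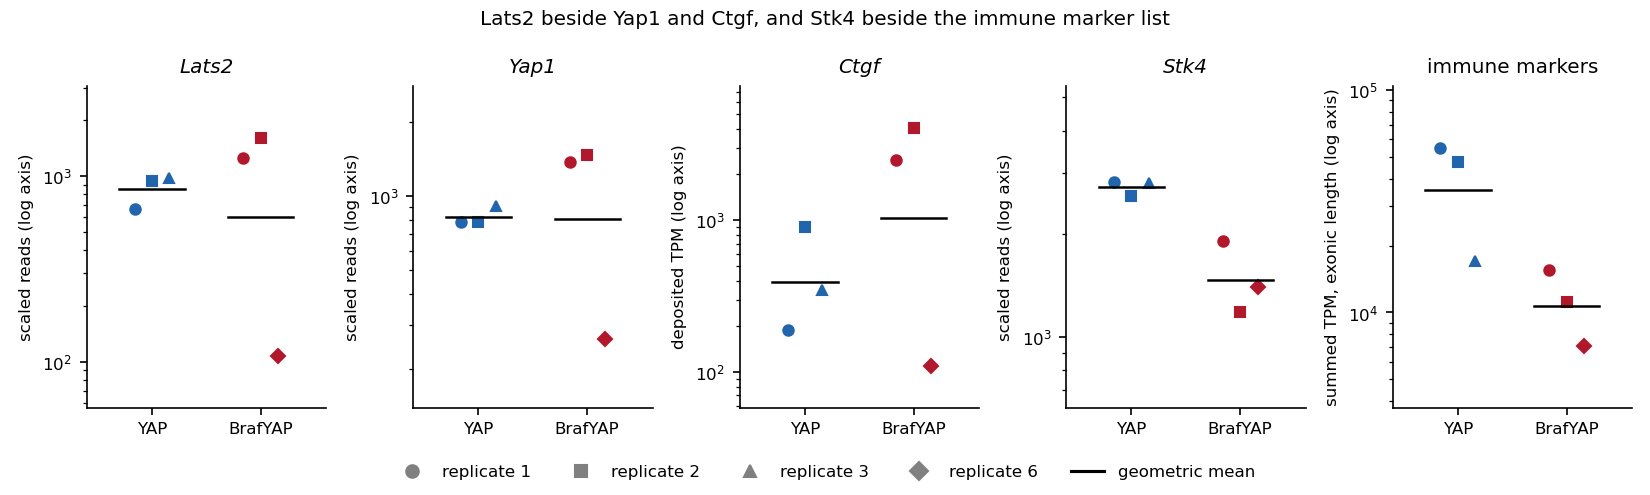
Lats2, Yap1 and Stk4 in scaled reads, Ctgf in deposited TPM and the summed level of 8 immune markers in TPM per exonic length, each on a log axis, by library (blue, YAP; red, BrafYAP; bars, geometric means). BrafYAP replicate 6 is the lowest library for Lats2 (107), Yap1 (264) and Ctgf (110.3), and the BrafYAP values lie under the YAP values for both Stk4 and the immune markers.

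Lats1, the other kinase of the pair (chr10:7681214-7716460, plus strand), had overlapping values, with no difference detectable at this spread. It had 323, 155 and 362 scaled reads in YAP and 258, 291 and 266 in BrafYAP. YAP replicate 2 was the lowest library, and the BrafYAP values lay within the YAP range. The log2 fold change was 0.05 (SE 0.40, 95% interval -0.89 to 0.98; limma adjusted p = 0.959), and its sign turned to -0.33 without YAP replicate 2 and to -0.02 under quantile normalization. Per exonic length, Lats2 exceeded Lats1 in YAP by 2.17, 6.33 and 2.84-fold and in BrafYAP replicates 1 and 2 by 5.08 and 5.79-fold. In BrafYAP replicate 6 the order was reversed and Lats1 exceeded Lats2 by 2.37-fold. The log2 ratio of Lats2 to Lats1 averaged 1.76 in YAP (SD 0.80) and 1.21 in BrafYAP (SD 2.13), a difference of -0.55 (p = 0.8, exact two-sided permutation test) that became 0.68 without BrafYAP replicate 6.

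Mob1a (chr6:83326016-83343776, plus strand) encodes a MOB1 cofactor of LATS and had the more abundant transcript of the pair. It had 1021, 3162 and 971 scaled reads in YAP replicates 1, 2 and 3 and 2721, 3383 and 3749 in BrafYAP. YAP replicate 2 lay among the BrafYAP values, at 3.18 times the mean of the other YAP libraries, so the groups overlapped. The means were 1718 ± 1251 (SD, n = 3) and 3284 ± 521 (SD, n = 3). The log2 fold change was 1.15 (SE 0.49, 95% interval 0.01 to 2.29), with a limma p of 0.0482 unadjusted and 0.244 adjusted. It was 1.71 without YAP replicate 2 (limma adjusted p = 0.0595), 0.89 without YAP replicate 1 (adjusted p = 0.502) and 0.86 without YAP replicate 3 (adjusted p = 0.514).

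Mob1b (chr5:88720855-88764220, plus strand), the second MOB1 gene, had 224, 314 and 457 scaled reads in YAP and 513, 400.3 and 855 in BrafYAP. BrafYAP replicates 1 and 6 lay above all YAP libraries, and replicate 2 lay within their range. For Mob1b the log2 fold change was 0.81 (SE 0.42, 95% interval -0.17 to 1.79; limma adjusted p = 0.319), and it was 0.51 without BrafYAP replicate 6. Per exonic length, Mob1a exceeded Mob1b in every library, by 6.66 to 31.6-fold (4.32 to 20.5-fold with the longest coding transcript), and the paralogs share no 50-base word in their transcripts. The log2 ratio of Mob1b to Mob1a averaged -3.85 in YAP (SD 1.12) and -4.19 in BrafYAP (SD 0.49; difference -0.34, p = 0.8, exact two-sided permutation test), and the difference was 0.22 without YAP replicate 3. The 3 paralog pairs were the only ratios tested, and none of the p-values lay at the smallest that 3 libraries against 3 allow.

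Nf2, the gene for merlin (chr11:4765845-4849536, minus strand), had 470.8, 2199 and 938 scaled reads in YAP and 2429, 2737 and 1312 in BrafYAP. As for Mob1a, YAP replicate 2 stood with the BrafYAP libraries, at 3.12 times the mean of the other YAP libraries. Its log2 fold change was 1.05 (SE 0.59, 95% interval -0.32 to 2.43; limma adjusted p = 0.352). It was 1.63 without YAP replicate 2 and 0.52 without YAP replicate 1.

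Amot, the gene for angiomotin (chrX:145446425-145505181, minus strand), had 68.9, 31.8 and 113 scaled reads in YAP and 103, 165 and 151 in BrafYAP. Only YAP replicate 3 reached into the BrafYAP range. For Amot the log2 fold change was 1.11 (SE 0.54, 95% interval -0.15 to 2.37; limma adjusted p = 0.294), and it was 0.63 without YAP replicate 2. Here YAP replicate 2 was the lowest library, at 2.86-fold under the mean of the other YAP libraries, in contrast to Mob1a and Nf2.

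Wwc1, the gene for KIBRA (chr11:35838400-35980527, minus strand), had 852, 873 and 1109 scaled reads in YAP and 1116, 678 and 646 in BrafYAP. BrafYAP replicate 1 was the highest library and replicates 2 and 6 were the lowest. Its log2 fold change was -0.25 (SE 0.32, 95% interval -1.01 to 0.50; limma adjusted p = 0.681), and it was -0.50 without BrafYAP replicate 1 and -0.11 without BrafYAP replicate 6.

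**Figure D3:**
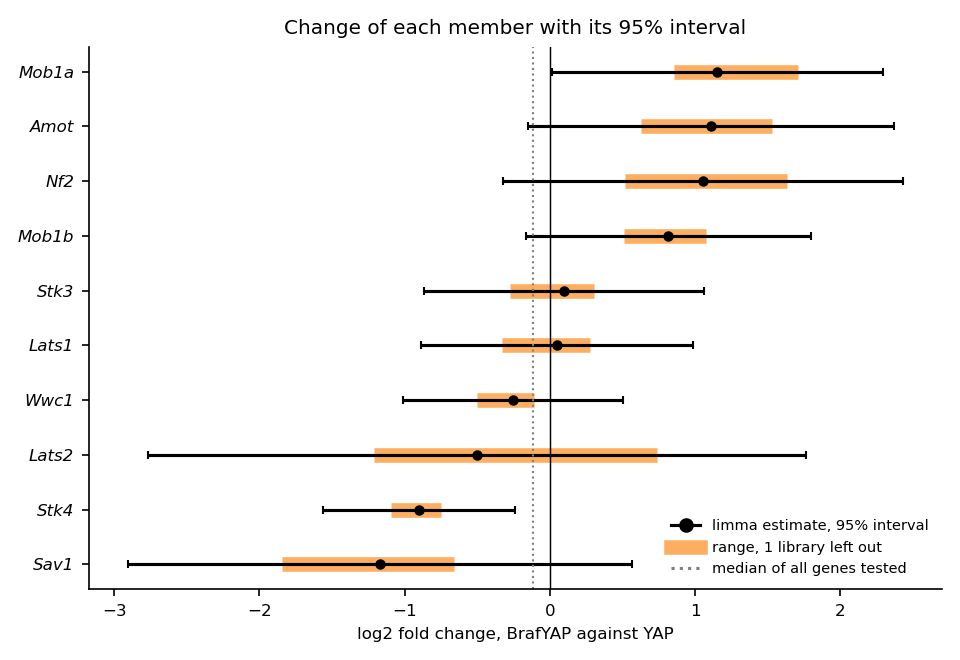
Log2 fold change of BrafYAP against YAP for each of the 10 genes, with points at the limma estimate, lines for the 95% interval, orange bars for the range with 1 library left out and a dotted line at the median of all genes tested (-0.12). The intervals of Mob1a (0.01 to 2.29) and Stk4 (-1.57 to -0.24) lie to one side of 0, and the orange bars of Stk3, Lats1 and Lats2 cross it.

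YAP replicate 2 was more than 2-fold above the mean of the other YAP libraries for Mob1a and Nf2. It was more than 2-fold under that mean for Sav1 (4.35-fold, at 13.1 estimated reads), Amot and Lats1 (2.21-fold). The share of all genes with such departures was not computed. Across genes YAP replicate 2 had r = 0.938 with YAP replicate 3, 0.908 with YAP replicate 1, 0.926 with BrafYAP replicate 1 and 0.914 with BrafYAP replicate 2. With libraries weighted by their agreement in limma (array weights), 4 of the 10 genes passed the threshold, beside 4650 of all genes tested. These were Stk4 (-0.82, limma adjusted p = 0.0270), Sav1 (-1.75, adjusted p = 0.0379), Mob1a (1.46, adjusted p = 0.0129) and Nf2 (1.35, adjusted p = 0.0154). That fit gave YAP replicate 3 a weight of 4.81 and BrafYAP replicate 6 a weight of 0.221, so it did not count the libraries alike.

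The levels of different genes can be compared only per length, and for this the reads were divided by exonic length and expressed as TPM. Stk4 had the highest mean of the 10 genes in YAP, 40.6 ± 3.55 TPM (SD, n = 3), followed by Mob1a at 30.5 ± 21.1. In BrafYAP the order began with Mob1a at 61.4 ± 9.71, Nf2 at 28.5 ± 10.2 and Stk4 at 22.8 ± 5.50. Stk4 made up 23.2 to 40.1% of the summed level of the 10 genes in the YAP libraries and 10.9 to 17.9% in BrafYAP. Mob1a was the highest of the 10 in YAP replicate 2 and in all BrafYAP libraries, and Stk4 was the highest in YAP replicates 1 and 3.

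The remaining genes formed a middle group of Wwc1, Nf2, Lats2 and Stk3, with YAP means of 16.6, 15.1, 10.7 and 8.04 TPM, and a low group of Lats1, Mob1b, Sav1 and Amot, with YAP means of 3.36, 1.93, 0.87 and 0.75 TPM. In BrafYAP the means of the low group were 3.34, 3.50, 0.33 and 1.49 TPM. Most neighbours in these orders had ranges that overlapped between libraries. In YAP, only Stk3 and Lats1 were separate. In BrafYAP, Mob1a lay above Nf2, Stk3 above Mob1b, Lats1 above Amot and Amot above Sav1 without overlap. With the length of the longest coding transcript in place of the full exonic length, Nf2 preceded Wwc1 and Stk3 preceded Lats2 in YAP, so the order within the middle group depends on the length used.

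**Figure D4:**
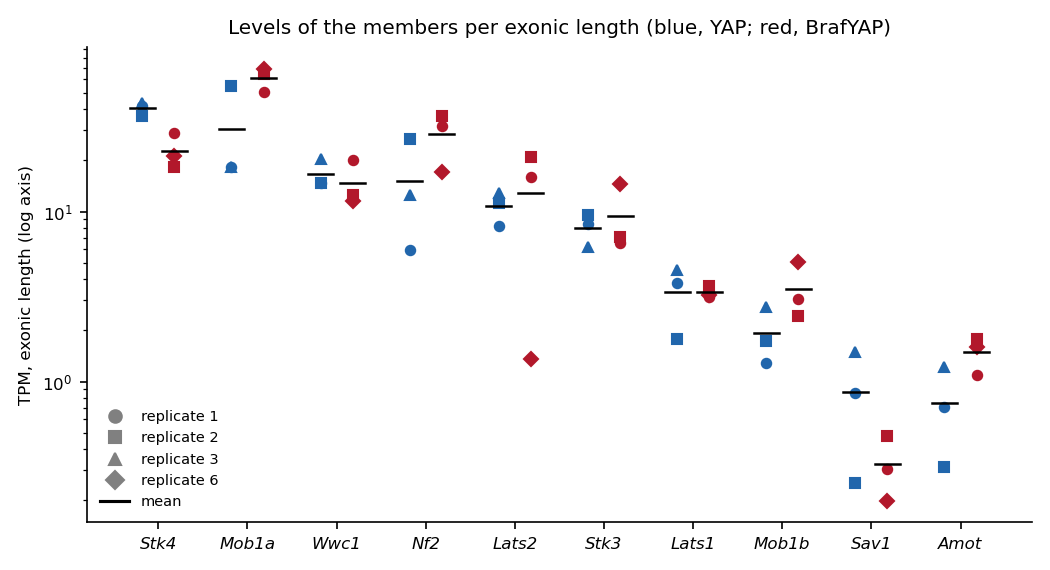
Level of each of the 10 genes in each library, in TPM per exonic length on a log axis, with YAP in blue, BrafYAP in red, a symbol per replicate number and bars at the arithmetic mean. Genes are in order of their YAP mean, from Stk4 (40.6 TPM) to Amot (0.75 TPM).

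The other genes of the pathway were taken from 5 lists by role, 67 genes in all, each of which could be tested. None passed the adjusted limma threshold, and at an unadjusted p under 0.05, 5 were higher and 2 lower in BrafYAP, 10.4% beside 20.2% of all genes. Their median log2 fold change was -0.10, beside -0.12 for all genes. In 10 of the 67 (14.9%) the groups did not overlap, beside 28.7% of all genes.

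Among 17 genes listed as inhibitors of the kinase cascade, 2 were higher and 1 lower at an unadjusted limma p under 0.05. That was 17.6%, beside 20.2% of all genes, and the median log2 fold change was 0.17. The groups did not overlap in 17.6% of the list, beside 28.7% of all genes. Strn4, a striatin subunit of the phosphatase complex that dephosphorylates MST kinases, had 447, 849.9 and 837 scaled reads in YAP and 1667, 1882 and 1851 in BrafYAP. The lowest BrafYAP value exceeded the highest YAP value, with a log2 fold change of 1.40 (SE 0.33, adjusted p = 0.107 in limma). Rassf2, a RASSF protein that binds MST kinases, had 448, 868 and 342 in YAP and 217, 142 and 100.3 in BrafYAP, a log2 fold change of -1.80 (SE 0.47, adjusted p = 0.116 in limma).

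Among 19 membrane scaffolds and polarity proteins, 1 was lower at an unadjusted limma p under 0.05 and 0 were higher. That was 5.26%, beside 20.2% of all genes, and the median log2 fold change was -0.48. The groups did not overlap in 10.5% of the list, beside 28.7% of all genes. The lower gene was Rassf5, also an MST partner and known from lymphocytes. It had 1947, 2189 and 995 scaled reads in YAP and 781, 474 and 285 in BrafYAP. Its log2 fold change was -1.77 (SE 0.48; limma adjusted p = 0.121). For Rassf5 and Rassf2, as for Stk4, the groups did not overlap and the immune marker sums given above were also lower in BrafYAP, and the part of those cells was not tested.

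The 14 kinases that act in parallel to MST and LATS had no gene at an unadjusted limma p under 0.05, beside 20.2% of all genes. Their median was -0.11. The smallest p-values there were those of Stk25 (1.49, SE 0.66, limma adjusted p = 0.258) and Map4k5 (0.61, SE 0.30, limma adjusted p = 0.299). They were the 2 genes of the list without overlap between the genotypes (14.3%, beside 28.7% of all genes). For Stk25 the log2 fold change was 0.71 without YAP replicate 1 and 2.10 without YAP replicate 2.

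Of 7 coactivators and DNA-binding partners, 1 was higher at an unadjusted limma p under 0.05. That was 14.3%, beside 20.2% of all genes, and the median was -0.02. The higher gene was Wwtr1, the gene for TAZ, with 945, 2777 and 1235 scaled reads in YAP and 3955, 5495 and 2501 in BrafYAP. BrafYAP replicate 6 lay just under YAP replicate 2, and the log2 fold change was 1.36 (SE 0.49; limma adjusted p = 0.189). Tead1, a DNA-binding partner of YAP and TAZ, had a log2 fold change of -0.66 (SE 0.57, adjusted p = 0.533 in limma), which was -0.23 without BrafYAP replicate 6 and -1.19 without YAP replicate 2.

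The 10 genes for degradation or cytoplasmic retention of YAP had 2 that were higher and none lower at an unadjusted limma p under 0.05. That was 20%, beside 20.2% of all genes, and the median was 0.20. The 2 were Fbxw11, a ubiquitin ligase subunit (1.10, SE 0.38, limma adjusted p = 0.179), and Ywhab, a 14-3-3 protein (1.07, SE 0.38, limma adjusted p = 0.181). Neither overlapped between the genotypes. In all, 3 of the 10 (30%) did not overlap, beside 28.7% of all genes.

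Of the 10 symbols listed as YAP and TAZ targets, 6 could be tested, Lats2 and Amotl2 among them. At an unadjusted limma p under 0.05, 0 were called, beside 20.2% of all genes, and the median was -0.67. Axl, a receptor tyrosine kinase, had a log2 fold change of -1.51 (SE 0.86, adjusted p = 0.359 in limma) and Ankrd1 had -2.41 (SE 1.63; limma adjusted p = 0.434), and in both BrafYAP replicate 6 was far under the other libraries, by 9.34-fold and 102-fold from the mean of BrafYAP replicates 1 and 2. Without BrafYAP replicate 6 the values were -0.44 for Axl and -0.25 for Ankrd1.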

How the data were processed

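RNA-seq was performed on 6 libraries of sorted cells, 3 YAP and 3 BrafYAP, grouped by the labels. RNA was amplified by SMART-Seq (12 cycles), with 8 cycles of library PCR and 50-nt paired reads. Reads were processed by the authors with bcl2fastq 2.2, STAR 2.6.1d and Partek E/M on mm10 and Ensembl release 95, and the table they deposited holds TPM with 0.0001 added (0 columns without a sample). Column totals were 181218. Low values (under 200 reads) were whole multiples (within 0.05) of a step per library for 71.7 to 76.1% of genes when multiplied by genomic span and for 22.4 to 25.1% with exonic length, so the deposited TPM had been divided by span. Undoing this with GENCODE M21 lengths (34709 symbols found, 34645 at 1 locus) gave scaled reads. E/M can divide reads between genes, PCR copies carry no molecular identifier, and read numbers cover counting error only.

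TPM are not counts, so limma 3.58.1 in R 4.3.3 was used (lmFit, eBayes with trend, two-sided) on log2(scaled reads + 1). A gene needed a mean of 10 or more scaled reads, p-values were adjusted by Benjamini-Hochberg and the threshold was 0.05. Paralog ratios were tested by exact permutation. The fit was tested on simulated data. The 10 genes and the lists were chosen with earlier results of these data known. From each other pathway list the 2 genes with the smallest p were named, with Yap1, Wwtr1 and the 3 profiles nearest to Stk4 (some items that this rule or the lists hold are not reported here). Alternatives were the deposited values, pseudocounts of 0.5 and 10, a minimum of 50 or none, median-ratio and quantile normalization, exonic TPM, no trend, voom, array weights, a replicate block and each library left out. The length of the longest coding transcript was added after seeing the data. The paper's methods and the labels give the same start of dox, its results text a later one, and pooling is described in the labels alone. The labels were followed.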

Additional observations from a re-analysis of the deposited data

How the results depend on the processing

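With 3 libraries per genotype, no batch in the labels and pooling tied to genotype, only differences well above the spread between libraries could pass. The number of genes past the adjusted limma threshold, 0 (3404 at an unadjusted p under 0.05), was 18 with the deposited values, 45 with a pseudocount of 10, 62 with quantile normalization, 62 with exonic TPM, 20 without a trend and 4650 with array weights, and 0 with voom, a pseudocount of 0.5, a minimum of 50, no minimum or median-ratio normalization. With a library left out it ranged from 0 to 142, being 3 without YAP replicate 2 and 142 without BrafYAP replicate 6. The number among the Hippo genes was 0 in each of these, libraries left out included (0 to 0), except 4 with array weights. Of the 10, only Mob1a could be tested on the deposited values, and 9, without Sav1, with a minimum of 50 or with exonic TPM.

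The replicate numbers 1 and 2 occur in both genotypes. Same-numbered libraries did not visibly deviate together (r = -0.03 and 0.05), so no pairing by number was detected, and a weak one could be missed. Number 3 occurs only in YAP and number 6 only in BrafYAP. In a fit with a replicate block, the genotype difference therefore rested on the libraries numbered 1 and 2. There 0 genes passed (2532 at an unadjusted limma p under 0.05). The log2 fold change turned in that fit to -0.49 for Stk3, 0.84 for Lats2 and 0.012 for Wwc1. It turned to 0.046 for Tead1, 0.86 for Yap1 and 1.09 for Amotl2.

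Of 169 log2 fold changes of the 10 genes over 18 alternatives, 154 kept direction and side of the threshold and 11 turned. Without BrafYAP replicate 6 the values were -0.28 for Stk3, 0.74 for Lats2, 0.78 for Yap1 and 0.98 for Amotl2, without YAP replicate 3 -0.12 for Stk3 and 0.05 for Yap1, without YAP replicate 2 -0.33 for Lats1, and without BrafYAP replicate 2 -0.0042 for Lats1. Array weights gave -0.30 for Lats1, 0.36 for Lats2, 0.55 for Yap1 and 0.54 for Amotl2. Quantile normalization gave -0.018 for Lats1, median-ratio normalization 0.10 and exonic TPM 0.078 for Yap1. With a library left out, the values ranged from -0.28 to 0.30 for Stk3, -0.33 to 0.28 for Lats1, -1.21 to 0.74 for Lats2, -0.45 to 0.78 for Yap1 and -1.32 to 0.98 for Amotl2. The group difference in log2 ratio ranged from 0.59 to 1.40 for Stk3 to Stk4, from -1.21 to 0.68 for Lats2 to Lats1 and from -0.90 to 0.22 for Mob1b to Mob1a with a library left out. Other causes of these shifts were not tested.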
